A study of Mus musculus with 12 samples.

Results

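The 10 autosomal genes of the mouse let-7 microRNA family, Mirlet7a-1, Mirlet7a-2, Mirlet7b, Mirlet7c-1, Mirlet7c-2, Mirlet7d, Mirlet7e, Mirlet7f-1, Mirlet7g and Mirlet7i, were followed through the copy-number segments of a pair of murine pancreatic ductal adenocarcinoma (PDAC) lines. The members were chosen by name, as every autosomal gene of the family, and not by any measured value. Earlier results of these data were known when they were chosen. Of the 10, 9 were named in a segment of each line, among 21139 autosomal genes named in both. Mirlet7i was not named in either line, and its values were read from the segment over its position.

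let-7 is a family of short RNAs that base-pair with messenger RNAs through their seed and lower the output of genes of growth and of the embryonic program. Each gene is transcribed as a long precursor, cut by Drosha in the nucleus to a hairpin and by Dicer in the cytoplasm to the mature strand. Lin28a and Lin28b bind the hairpin and block these steps, so that mature let-7 can be held down after transcription. The number of gene copies is a separate layer, set in DNA, and it is the only layer measured here.

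The lines 15376T and 14837T were isolated from PDAC of C57BL/6 mice that carried p48-Cre, a doxycycline-inducible oncogene behind a lox-stop-lox cassette (tetO_LSL), ROSA_rtTA and p53 L/+, so that Cre was driven from the promoter of the pancreatic factor p48. Both are labelled WT, which here stands for cells without the Lin28b knockout made elsewhere in the study, and their only labelled difference is the line. DNA of each was read by whole-exome sequencing (WES). Each line gave 1 library, WES-15376T or WES-14837T, so the lines could not be tested against each other, p-values are absent, and every difference below is a difference between these libraries. Every segment came with a log2 value for its coverage over that of a reference. It also came with a B-allele fraction (BAF), a mean read depth and a called copy number. A log2 of 0 was read as 2 copies. Ploidy and purity of the lines are not given, and this baseline was not tested. All copy counts below rest on it. The mean depth over autosomal bins was 43.4 in 15376T and 47.5 in 14837T, and the autosomes were cut into 183 and 224 segments. The spread used as a yardstick was the log2 SD of the autosomal segments with a call of 2 copies. It was 0.090 over 103 segments in 15376T and 0.095 over 96 in 14837T, or 0.13 for a difference between the lines. The calls follow log2 thresholds, which bound the log2 of these segments and so limit this SD in advance. Multiples of the SD given below therefore partly restate the calls and are not a separate test of them.

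The mature strands are shown because loci on different chromosomes make the same sequence or nearly so. They are the 5p strands of RefSeq (GRCm38.p6), 5′ to 3′, with the seed (bases 2 to 8) in capitals.
let-7a (Mirlet7a-1, Mirlet7a-2): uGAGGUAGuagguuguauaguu
let-7b (Mirlet7b): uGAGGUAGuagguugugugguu
let-7c (Mirlet7c-1, Mirlet7c-2): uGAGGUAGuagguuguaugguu
let-7d (Mirlet7d): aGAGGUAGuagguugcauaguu
let-7e (Mirlet7e): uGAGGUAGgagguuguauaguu
let-7f (Mirlet7f-1): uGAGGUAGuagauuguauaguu
let-7g (Mirlet7g): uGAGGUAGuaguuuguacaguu
let-7i (Mirlet7i): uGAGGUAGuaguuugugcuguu
The 10 genes make 8 different 5p sequences with 1 shared seed, GAGGUAG, which 13 of 1738 mature mouse strands in the table carry (0.748%). Counted from 1 at the 5′ end of let-7a, the changes were A17G and A19G in let-7b, A19G in let-7c, U1A and U16C in let-7d, U9G in let-7e, G12A in let-7f, G12U and U18C in let-7g, and G12U, A17G, U18C and A19U in let-7i. None of them lies in the seed. The 3p strands were less alike, with 7 seeds among the 10 genes. The seed UAUACAA was shared by Mirlet7a-1, Mirlet7b, Mirlet7c-2 and Mirlet7f-1, and each of the other 6 genes had its own.

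The hairpins of the chromosome 13 and chromosome 15 clusters are shown because in 14837T the first was called lost and the second gained, and because they differ at the site that Lin28 proteins are known to bind, a GGAG in the loop between the arms. Capitals mark that GGAG where it was found.
Mirlet7a-1: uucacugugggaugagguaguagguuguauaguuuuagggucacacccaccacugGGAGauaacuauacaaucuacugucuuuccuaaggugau
Mirlet7d: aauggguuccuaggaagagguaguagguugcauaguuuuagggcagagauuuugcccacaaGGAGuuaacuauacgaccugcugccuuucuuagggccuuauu
Mirlet7f-1: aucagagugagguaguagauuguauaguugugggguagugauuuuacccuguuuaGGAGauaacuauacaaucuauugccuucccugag
Mirlet7b: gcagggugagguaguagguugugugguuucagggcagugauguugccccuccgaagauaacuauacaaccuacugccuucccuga
Mirlet7c-2: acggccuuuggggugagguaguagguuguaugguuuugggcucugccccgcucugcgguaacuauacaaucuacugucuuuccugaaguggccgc
The letters GGAG were searched on the hairpin strand between the arms and were present in 8 of the 10 members. Mirlet7b and Mirlet7c-2, the chromosome 15 pair, lacked them. Of 644 mouse hairpins with both arms in the table, 52 (8.07%) held these letters between the arms. A match is a description of the letters, not of binding.

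On the genome the 10 genes fell into 7 clusters, with members of a cluster less than 50 kb apart. Mirlet7d, Mirlet7f-1 and Mirlet7a-1 lie together on chromosome 13, with 1714 and 261 bases between them. Mirlet7c-2 and Mirlet7b lie together on chromosome 15, with 621 bases between them. The other 5 genes stand alone, and of these Mirlet7a-2 and Mirlet7g are both on chromosome 9, 64.6 Mb apart. Genes of a cluster shared a segment in both lines and so share each value below, and they do not count as separate observations of a change.

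In 15376T, 0 of the 9 named genes were called gained, 2 were called lost (Mirlet7g and Mirlet7c-1) and 7 were called at 2 copies. Among all autosomal genes of that library 9.16% were called gained and 30.0% lost. In 14837T, 3 of the 9 were called gained (Mirlet7b, Mirlet7c-2 and Mirlet7e), 4 were called lost (Mirlet7a-1, Mirlet7d, Mirlet7f-1 and Mirlet7c-1) and 2 were called at 2 copies, against 21.5% gained and 28.8% lost among all genes. The call differed between the lines for 7 of the 9 genes, where 29.4% of all autosomal genes differed. Counted by cluster this was 4 of 6 clusters, since the chromosome 13 genes and the chromosome 15 genes each changed as a block. Only Mirlet7a-2, at 2 copies in both, and Mirlet7c-1, at 1 copy in both, had the same call in the lines. The median segment log2 of the 9 genes was −0.043 in 15376T and −0.029 in 14837T, beside −0.023 and −0.045 over all autosomal genes.

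**Figure D1:**
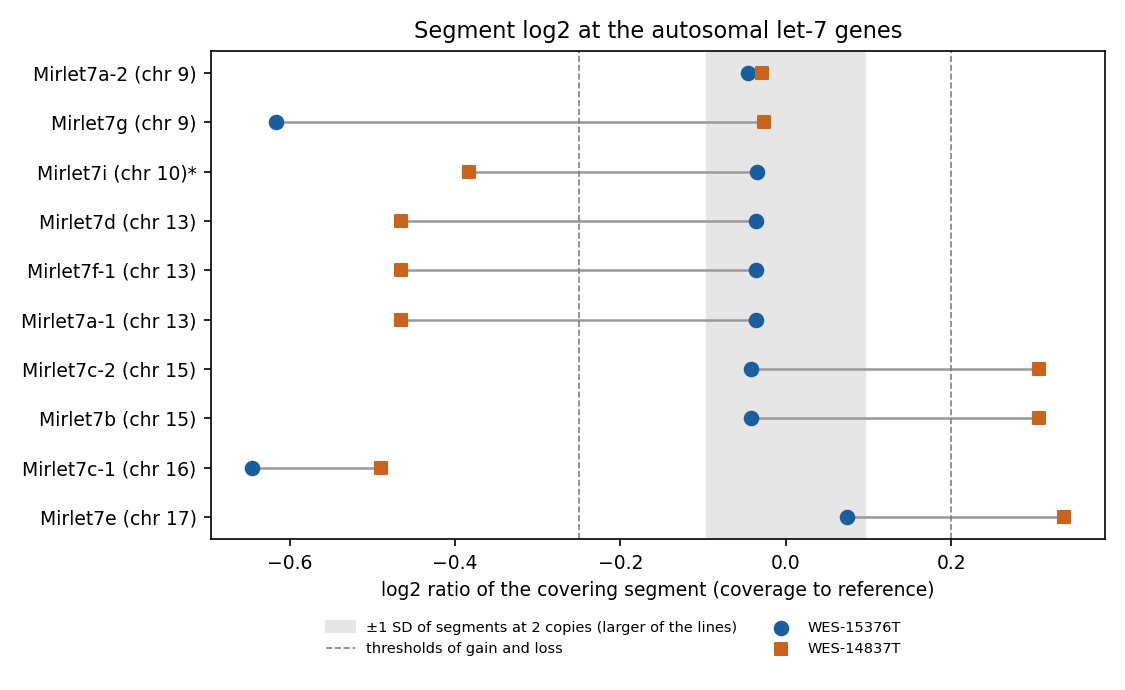
Segment log2 ratio (x axis) of the 10 autosomal let-7 genes (rows) in WES-15376T (blue circles) and WES-14837T (orange squares), with the calling thresholds of 0.2 and −0.25 dashed and ±1 SD of segments called at 2 copies shaded. The asterisk marks Mirlet7i, read by position. Blue circles leave the range between the thresholds only at Mirlet7g (−0.62) and Mirlet7c-1 (−0.65), while orange squares leave it on both sides, from −0.49 at Mirlet7c-1 to 0.34 at Mirlet7e.

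The chromosome 13 cluster was called lost in 14837T and was the cluster with the highest allele values in both lines. Mirlet7d (chr13:48536012-48536114), Mirlet7f-1 (chr13:48537829-48537917) and Mirlet7a-1 (chr13:48538179-48538272), all on the minus strand of mm10 with no host gene in RefSeq, are sources of let-7d, let-7f and let-7a. Their segment had a log2 of −0.036 in 15376T, called at 2 copies, and −0.47 in 14837T, called at 1 copy. The difference (15376T minus 14837T) was 0.43, or 3.28 times the combined SD, and its size was above that of 88.0% of autosomal genes. The same difference taken from the lines' own segment depths, 44.5 and 34.3, each over its library mean, was 0.51.

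The BAF of that chromosome 13 segment was 0.29 in 15376T and 0.68 in 14837T, beside autosomal medians weighted by length of 0.077 and 0.061. In 15376T the 2 copies were called as 1 and 1 of different alleles, a call that 14 of 160 autosomal segments with an allele call had in 15376T and 2 of 193 in 14837T. Segments with a second allele held 10.9% of the autosomal length that had a BAF in 15376T and 7.33% in 14837T. In 14837T the cluster was called as 1 copy of 1 allele. Segments with a BAF as high as that of the cluster covered 17.0% of that length in 15376T and 2.37% in 14837T. Every other member segment with 2 or more copies was called with all copies on 1 allele, at BAF values of 0.035 to 0.24. Such calls were common, since a second allele was called in 20 of 160 autosomal segments with an allele call in 15376T. In 14837T it was called in 8 of 193. Whether an allele had been lost at the member segments was not tested. The number of variants behind a BAF is not in the tables, and its part in these values was not tested.

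The chromosome 13 segment was long in both lines. It ran over 42.1 Mb and 3111 bins in 15376T (chr13:23461446-65559739) and over 36.6 Mb and 2663 bins in 14837T (chr13:28952065-65559739), and both ended at the same base, 17.0 Mb beyond the cluster. That shared end lay at a stretch of 448 kb without bins. On the near side, 15376T had a short segment of 56 bins at 0.39, called at 3 copies, that ended in Btn1a1. In 14837T the flank was at −0.075, called at 2 copies, and the fall began between Prl5a1 and Sox4. On the far side the values went on at −0.091 in 15376T and at −0.53, called at 1 copy, in 14837T. The let-7 cluster thus lay far inside the lost stretch of 14837T and not at its edge.

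The chromosome 15 pair moved the other way. Mirlet7c-2 (chr15:85706603-85706697) and Mirlet7b (chr15:85707319-85707403), on the plus strand within the long noncoding host gene Lncppara, had a segment log2 of −0.043 in 15376T, called at 2 copies, and 0.31 in 14837T, called at 3. The difference was −0.35, or −2.66 times the combined SD, and −0.34 from depths of 38.6 and 53.8. Its size exceeded that of 81.4% of autosomal genes. The gained segment of 14837T spanned 17.0 Mb and 3025 bins (chr15:72810884-89782019) between flanks of −0.049 and 0.028, both called at 2 copies. In 15376T the pair sat in a segment of 6.92 Mb at 2 copies (chr15:83300603-90223993), and 2.41 Mb before it lay a segment of 49 bins at 0.66, called at 3 copies, that ended at A4galt. So chromosome 15 held gained sequence near the pair in both lines, and only in 14837T did the gain cover it.

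Mirlet7e (chr17:17830352-17830444, plus strand, within Spaca6) was the other gained gene of 14837T. Its segment log2 was 0.074 in 15376T, called at 2 copies, and 0.34 in 14837T, called at 3. The difference of −0.26 was −2.0 times the combined SD and was −0.20 from the depths of 46.4 and 58.6. Of the called differences among the named members it was the smallest. Mirlet7e lay 0.766 Mb from the start of its segment in both lines, at the same base (17064101), next to a stretch of 599 kb without bins between Rgmb and Zfp960. The flanks had the same calls as the segment, at −0.023 and −0.019 in 15376T and at 0.23 and 0.43, in 14837T, where both were called at 3 copies.

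Mirlet7g (chr9:106178840-106178927, plus strand, within Wdr82, a gene of a histone methyltransferase complex) was lost in 15376T only. Its segment log2 was −0.62 there, called at 1 copy, and −0.026 in 14837T, called at 2. The difference of −0.59 was −4.51 times the combined SD, the largest among the members, and its size was above that of 97.5% of autosomal genes. From segment depths of 31.7 and 49.2 it was −0.50. The BAF was 0.059 in 15376T and 0.24 in 14837T.

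In 14837T Mirlet7g was also the member closest to a segment border. In 15376T its segment (chr9:101354424-107513671, 873 bins) lay between one at −1.11, called at 0 copies over 93 bins and ending in Ppp2r3a, and one at −0.46, called at 1 copy, so that the gene was lost in a stretch of losses of unequal log2. The segment called at 0 copies still had a mean depth of 21.3, beside 31.7 in that of Mirlet7g, so reads were not absent there. In 14837T its segment was short, 1.78 Mb and 442 bins (chr9:105785737-107564755), and began 0.393 Mb before the gene. The flank before it, over 279 bins up to Col6a6, was at −0.27, just past the loss threshold of −0.25, and the flank after it was at 0.10, called at 2 copies. The border between Mirlet7g and a called loss in 14837T was thus 0.393 Mb away. The segments of the lines overlapped over 1.73 Mb.

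**Figure D2:**
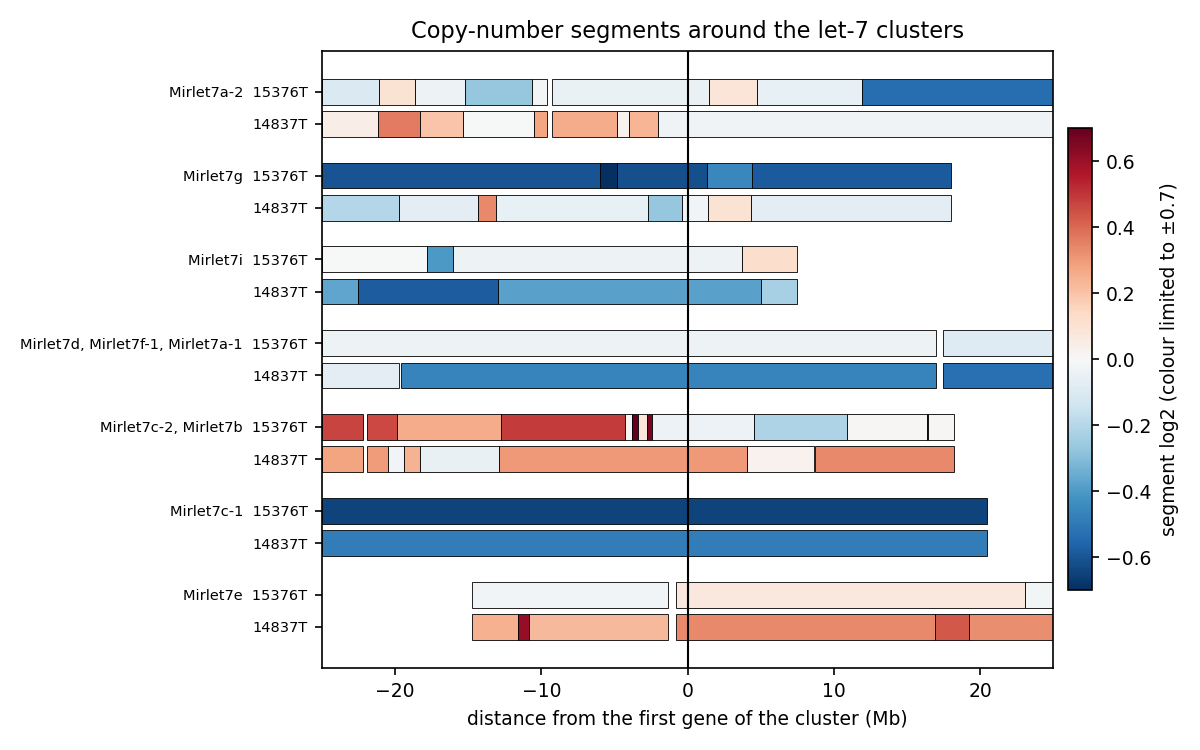
Copy-number segments (boxes) up to 25 Mb on each side of the 7 let-7 clusters, with the distance from the first gene of the cluster in Mb (x axis), 1 row per line and the segment log2 as colour, limited to ±0.7 (blue lower, red higher). The black line marks the cluster. It crosses a lost segment of 36.6 Mb at Mirlet7d, Mirlet7f-1 and Mirlet7a-1 in 14837T, a gained one of 17.0 Mb at Mirlet7c-2 and Mirlet7b in 14837T, and the same lost segment of 73.5 Mb in both lines at Mirlet7c-1.

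Mirlet7c-1 (chr16:77599657-77599750, plus strand) was the member lost in both lines. Its segment log2 was −0.65 in 15376T and −0.49 in 14837T, each called at 1 copy, with BAF values of 0.086 and 0.055. The segment had the same borders in the lines (chr16:24608101-98082498, 73.5 Mb), and the segment before it was also called at 1 copy in each, at −0.54 and −0.40. Its start lay at a stretch of 315 kb without bins between Bcl6 and Lpp, and it was the last segment of the chromosome. All segments of chromosome 16 were thus called at 1 copy in both lines. The difference of −0.16 was −1.19 times the combined SD, and −0.098 from depths of 29.1 and 34.1, so it was close to the spread of unchanged segments. Only 0.142% of autosomal genes had a lower log2 than Mirlet7c-1 in 15376T, and 3.35% in 14837T. Over all autosomes the lines had 25 segment starts in common, or 15.2% of 164 in 15376T and 12.2% of 205 in 14837T.

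Mirlet7a-2 (chr9:41536716-41536811, plus strand, within Mir100hg) kept 2 copies in both lines. Its segment log2 was −0.046 in 15376T and −0.029 in 14837T, and the difference of −0.017 was −0.13 times the combined SD. As the second source of let-7a, it was at 2 copies in 14837T where Mirlet7a-1 was called at 1. In 14837T the flank 2.05 Mb before it was called at 3 copies, at 0.24, while the flank before its segment in 15376T was at −0.019.

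Mirlet7i (chr10:122985640-122985724, minus strand) could be placed by position only. The segment over it was at −0.035 in 15376T, called at 2 copies, and at −0.38 in 14837T, called at 1, with depths of 44.9 and 37.1. The difference of 0.35 was 2.65 times the combined SD. Counted with it, 14837T had 5 lost members and 8 members were called differently. Among all autosomal genes 28.8% were called lost in 14837T and 29.4% were called differently. Genes of a cluster enter these member counts 1 by 1, although they share a segment. Hmga2, a chromatin protein gene and a classic let-7 target, lies 2.62 Mb from Mirlet7i in the same segment in both lines, so the microRNA gene and its target had the same call in each.

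The calls of the autosomal genes were then added up by mature sequence, since loci on different chromosomes make the same strand. let-7a had 4 called copies in 15376T and 3 in 14837T, let-7c had 3 and 4, let-7b and let-7e had 2 and 3 each, let-7d and let-7f had 2 and 1 each, let-7g had 1 and 2, and let-7i had 2 and 1. From autosomal genes alone, each 5p sequence thus differed by 1 called copy between the lines. Of the 8, 4 were higher in 15376T (let-7a, d, f and i) and 4 in 14837T (let-7b, c, e and g). These are not 8 separate changes, since let-7a, d and f differed in call only through the chromosome 13 segment. let-7b and c did so only through the chromosome 15 segment. Among all autosomal genes 29.4% had a different call in the lines. Over the 9 named genes the called copies summed to 16 in 15376T and 17 in 14837T, where 2 copies of each would give 18, and with Mirlet7i to 18 in both lines of 20. The X-linked genes changed these sums. Mirlet7f-2 makes the same let-7f 5p strand as Mirlet7f-1 and was called at 1 copy in 15376T and 2 in 14837T, so with it let-7f had 3 called copies in both lines, and 3.31 and 3.24 by coverage. With Mirlet7f-2 and Mir98 the 12 genes of the family summed to 20 called copies in 15376T and 22 in 14837T. How many X copies the animals started with is not given in the labels.

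A count from coverage, 2 times the linear ratio, gave the same order with smaller steps. Segments called at 1 copy measured 1.30 copies (Mirlet7g) and 1.28 copies (Mirlet7c-1) in 15376T and 1.45 (chromosome 13 cluster), 1.42 (Mirlet7c-1) and 1.53 (Mirlet7i) in 14837T. Segments called at 3 copies measured 2.47 (chromosome 15 pair) and 2.53 (Mirlet7e). Every changed member thus lay nearer to 2 copies by coverage than by its call. The 9 named genes summed to 16.4 copies by coverage in 15376T and 17.2 in 14837T, and the 10 to 18.3 and 18.7.

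**Figure D3:**
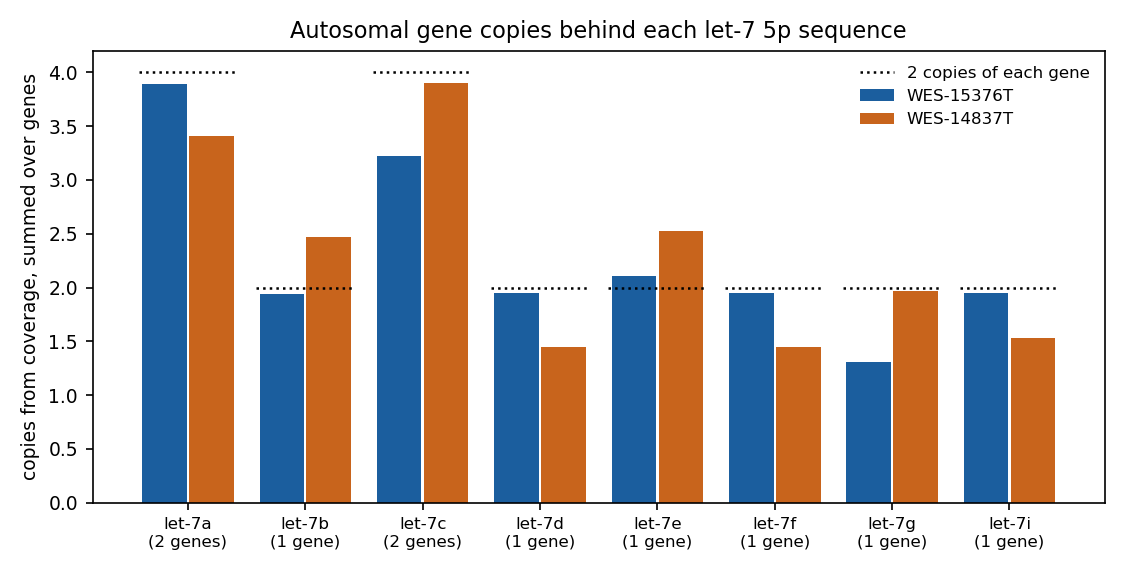
Gene copies from coverage (y axis, 2 times the linear coverage ratio, summed over genes) for each let-7 5p sequence, X-linked genes left out, in WES-15376T (blue) and WES-14837T (orange), with the dotted line at 2 copies of each gene and no error bars, since there is 1 library per line. From autosomal genes, let-7a, d, f and i are higher in WES-15376T, for example 1.95 against 1.45 for let-7d. let-7b, c, e and g are higher in WES-14837T, for example 1.96 against 1.30 for let-7g. The called changes of let-7a, d and f lie in 1 segment, and those of let-7b and c in another.

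The autosomal sum could also be divided by the GGAG of the hairpins. The 7 named genes with GGAG between the arms had 12 called copies in 15376T and 11 in 14837T, of 14 at 2 copies each, and 12.5 and 12.2 copies by coverage. The chromosome 15 pair without it had 4 and 6 called copies, and 3.88 and 4.95 by coverage. All of the difference in the last group came from 1 segment.

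The gene tables also gave the depth of single genes, where the smallest absolute log2 of a listed gene was 0.40. Mirlet7g and Mirlet7c-1 were listed in 15376T, and Mirlet7c-1, Mirlet7d, Mirlet7f-1 and Mirlet7a-1 in 14837T. Each was covered by 1 bin of 150 bases, which held between 88 and 91 bases of the hairpin, so its depth is the value of that bin and has no error.

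Within the lost chromosome 13 segment of 14837T the 3 hairpins were read more deeply than the segment around them. The depths were 63.7 at Mirlet7d, 47.8 at Mirlet7f-1 and 91.4 at Mirlet7a-1, where the segment mean was 34.3 and the median of 69 listed genes within 5 Mb was 34.7. On the log2 scale they stood 0.88, 0.46 and 1.40 over that median, with an SD of 0.61 to 0.63 among these neighbours. Against the 48 other genes with 1 bin in the segment, they were above 41, 33 and 46. Both sets of comparison genes include the other hairpins of the cluster. The depth of a bin this small also varied widely among genes, from 5.42 to 108 over those 48. The 3 genes were not listed in 15376T, so whether the high depth belongs to the bins or to the line was not tested.

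Mirlet7g stood on the other side of its segment. In 15376T its bin was read at a depth of 15.5, where the segment mean was 31.7 and the median of 68 neighbours was 32.8, which put it 1.08 lower on the log2 scale with an SD of 0.49. Its host Wdr82 had a depth of 53.0 over 10 bins. The other 2 genes with 1 bin in that segment were at 42.9 and 87.9. Mirlet7g was not listed in 14837T, so whether the low depth belongs to the bin or to the line was not tested.

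Mirlet7c-1 was the member whose own depth could be compared between the lines. It was 54.5 in 15376T and 39.6 in 14837T, where the segment means were 29.1 and 34.1. Over the median of 19 neighbours it stood 0.88 higher (SD 0.55) in 15376T and 0.17 higher (SD 0.55) in 14837T, and it was above 64 and 29 of the 100 other genes with 1 bin in the segment. Scaled to the mean depth of each library, its log2 ratio between the lines was 0.59, which is 0.75 above the segment's −0.16. The SD of this deviation was 0.30 over 711 genes with 1 bin listed in both lines, and 0.15 over 1985 genes with at least 5 bins.

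The neighbours of Mirlet7c-1 in the same microRNA cluster did not follow it. Mir99a, a microRNA gene less than 1 kb away, was read at 36.5 in 15376T and 66.3 in 14837T, a scaled log2 ratio of −0.73. Mir125b-2, the lin-4 family member of the cluster, was read at 22.3 and 23.2, a ratio of 0.073. Mir99ahg, whose RefSeq position does not cover Mirlet7c-1, was read at 19.3 and 46.4 over its 1 bin of 120 bases, a ratio of −1.13. Of that bin 61 bases lay in the gene. The median ratio of the 19 genes near Mirlet7c-1 was −0.097. Depths of single bins within the cluster therefore moved both up and down between the libraries, inside a segment with 1 call.

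**Figure D4:**
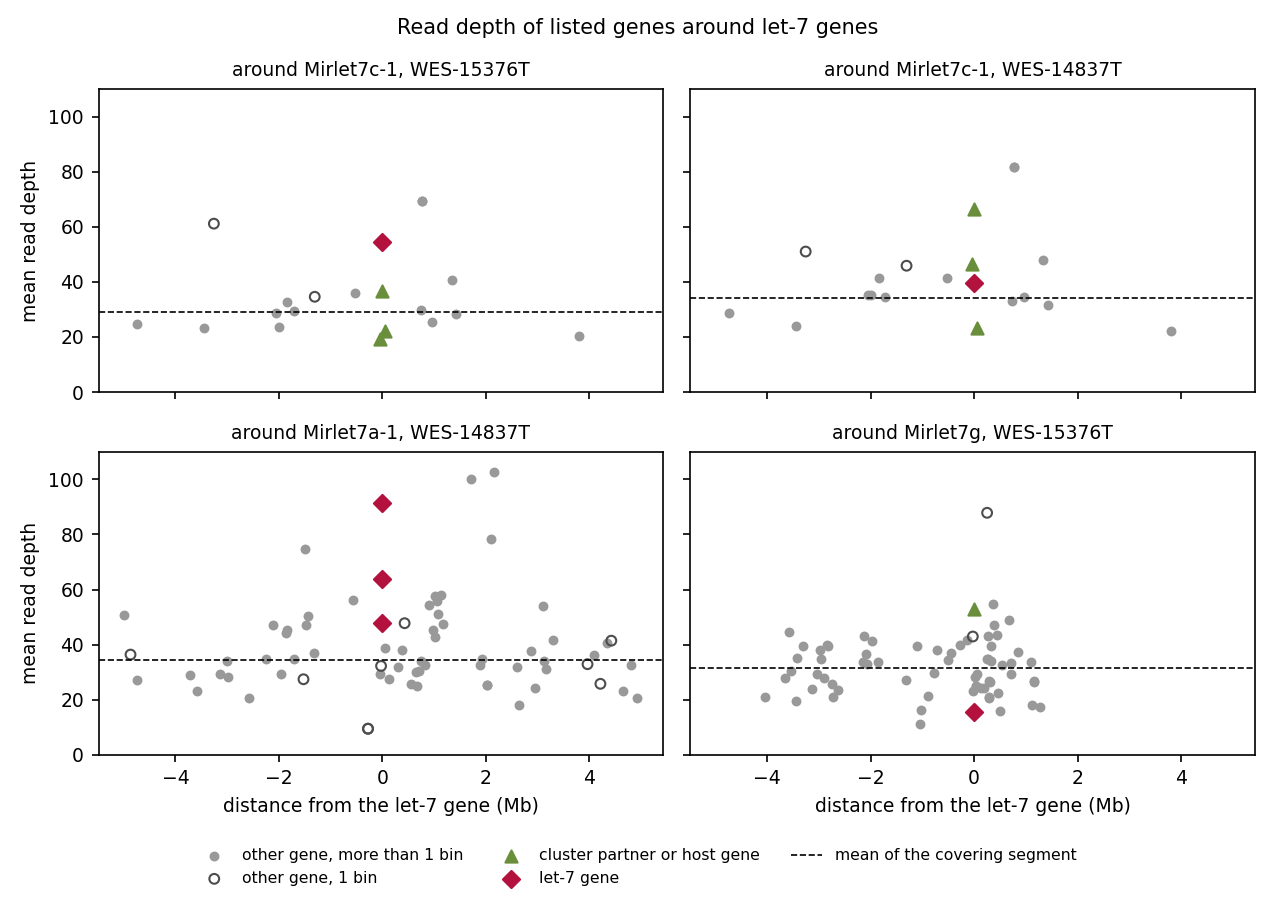
Mean read depth (y axis) of genes listed in the gene tables against their distance in Mb (x axis) from Mirlet7c-1 in WES-15376T and WES-14837T, from Mirlet7a-1 in WES-14837T and from Mirlet7g in WES-15376T. Red diamonds are let-7 genes, green triangles are cluster partners or the host gene, open circles are other genes with 1 bin, grey points are genes with more bins, and the dashed line is the segment mean. The 3 chromosome 13 genes lie above their line of 34.3, Mirlet7g at 15.5 lies below its line of 31.7, and Mirlet7c-1 lies above its line in both libraries.

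The genes that travel with let-7 had the calls of their clusters. Of 12 microRNA and host genes of these clusters 9 were named, and 0 were called gained and 4 lost in 15376T, 3 gained and 3 lost in 14837T, with 4 called differently, against the same percentages over all genes as above. Mir99b and Mir125a went with Mirlet7e, at 2 copies in 15376T and 3 in 14837T. Mir99a, Mir125b-2 and Mir99ahg went with Mirlet7c-1, at 1 copy in both. Mir100 and Mir100hg went with Mirlet7a-2, at 2 copies in both. The X-linked family members Mir98 and Mirlet7f-2 shared a segment at −0.56, called at 1 copy, in 15376T and at −0.16, called at 2 copies, in 14837T.

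Of 17 genes that process or regulate let-7, 1 was called gained and 7 lost in 15376T, and 5 gained and 7 lost in 14837T, with 6 called differently. Over all autosomal genes the shares were 9.16% gained and 30.0% lost in 15376T, 21.5% and 28.8% in 14837T, and 29.4% called differently, and 5 of the 17 (Lin28a, Tut4, Ago1, Ago3 and Ago4) shared 1 segment on chromosome 4 in each line. Lin28b was at 2 copies in both lines (−0.10 and −0.080), and Lin28a at 1 copy in both (−0.59 and −0.39). Tut7, which adds uridines to let-7 precursors, lay in the segment of the chromosome 13 cluster in both lines, 11.2 Mb from it, and shared its loss in 14837T. Ago2, the slicing Argonaute, shared the gained segment of the chromosome 15 pair in 14837T, 12.6 Mb away, and was called at 3 copies in both lines. Of 15 let-7 target genes, 4 were called gained and 7 lost in 15376T, and 4 gained and 6 lost in 14837T, with 4 called differently, beside the 29.4% of all genes called differently.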

How the data were processed

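The members and the gene lists were chosen with earlier results of these data known. WES of genomic DNA was analysed for 15376T and 14837T, with 1 library each, grouped by their labelled titles. RNA-seq samples and tail DNA were not analysed here. The deposited log2 values relate segment coverage to a copy-number reference chosen by the authors. The BAF deposited by the authors is a fraction from 0 to 1. The read depth deposited by the authors is a coverage signal that is not normalized. The weight deposited by the authors is a score and was not used. The called copy numbers are the authors', and followed log2 thresholds of 0.2 (gain) and −0.25 (loss) with 0 exceptions. Aligner, copy-number caller and reference are not given in the sources used here. The build is mm10 per the submitters' processing notes. The capture kit is a human exome kit in the labels and another human exome kit in the study's methods, and how either affects depth at mouse hairpins was not tested. Starts, which count from 0 in the tables, were rewritten to count from 1.

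Each member was found by name in the gene column of the segments, and by its RefSeq position (GRCm38.p6), which listed genes overlapped for 99.2% of 7949 matched names in WES-15376T and 99.6% of 4749 in WES-14837T. The genes named were the 10 members, the X-linked members, cluster partners, and genes of the processing and target lists, some of which are not reported here, together with the genes at segment borders. Mature strands and hairpins were matched by symbol in RefSeq, and the let-7a strand of Mirlet7a-2 was found as letters in its hairpin. Copies from coverage were 2 times the linear ratio. Own depths were set against listed genes of the same segment within 5 Mb. Percentiles are over all 21139 autosomal genes. The spread between bins and the variants behind each BAF are not in the tables, so how precise one segment is cannot be given, and the SD of segments called at 2 copies was used. Alternatives were absolute log2 limits of 0.3 and 0.5, recentred log2, counts by cluster, position in place of name, segment depth in place of log2, neighbours within 2 Mb or with at least 5 bins, clusters within 10 kb, and a background of genes in 1 segment only. Steps were run in Python 3.11.15 with numpy 2.4.6, pandas 2.3.3 and matplotlib 3.10.9. Only the calls by threshold, the assignment of genes to segments and the weighted median were tested on simulated data.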

Additional observations from a re-analysis of the deposited data

How the results depend on the processing

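Of 67 values recomputed under another setting, 62 moved by less than the spread or, for counts, by no more than 1.5 times. None changed direction among called values. The spread was that between segments, and for own depths that among neighbouring genes. At an absolute log2 of 0.5, WES-14837T had 0 named members gained and 0 lost, because its member segments all lay between −0.49 and 0.34. The 2 members called differently were then Mirlet7g and Mirlet7c-1. Mirlet7c-1 differed only because −0.65 in WES-15376T passed this limit and −0.49 in WES-14837T did not. The share of all autosomal genes called at 0.5 was not computed. With each cluster counted as 1, WES-14837T had 2 clusters lost and 4 were called differently, because genes of a cluster share a segment. Recentring log2 on the autosomal median, position in place of name, and segment depth in place of log2 moved no value by more than this. Mirlet7c-1 in WES-14837T stood 0.17 over neighbours within 5 Mb and −0.07 over those within 2 Mb. No paired analysis was possible because there is 1 WES library per line and no test. Each hairpin is 1 bin, so its own depth has no spread.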

Other observations

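The seed GAGGUAG is carried by strands of 13 microRNA genes in the RefSeq table. Besides autosomal and X-linked let-7 genes and Mir98, these include Mir7k and Mir1961. The strand of Mirlet7a-2 is not among the 13, because it was found in the hairpin and not under its own name. The X-linked bins, both in the segment at −0.56 of WES-15376T, had depths of 47.2 at Mir98 and 79.5 at Mirlet7f-2, beside a segment mean of 32.2. Of the listed hairpin bins of the family in both libraries, Mirlet7g alone was read below its segment mean. Other genes with 1 bin in these segments also had medians above the segment mean. In the Mirlet7c-1 segment of WES-15376T, for example, that median was 41.8 and the mean 29.1. Set beside such genes, Mirlet7c-1 in WES-14837T was also low, at 39.6 against a median of 46.8.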
